A study of Mus musculus with 24 samples.

Results

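The levels of 10 genes that mark cardiac fibroblasts in their resting or activated state were followed across 4 groups of mouse hearts. They were chosen by symbol, with earlier results of these data known. All 10 were found among the 25229 genes of the count table, and they comprise 6 activation genes (Cthrc1, Meox1, Cilp, Fap, Acta2 and Frem1) and 4 resting or general markers (Tcf21, Pdgfra, Dpt and Pi16). The hearts came from male C57BL/6 mice, and RNA of the left ventricle with the septum was sequenced after poly-A selection. The groups were TAC/Benzene (transverse aortic constriction, TAC, then benzene at 50 ppm), TAC/Air (the same constriction, then filtered air), Sham/Benzene (sham operation, then benzene at 50 ppm) and Sham/Air (sham operation, then filtered air), with 6 libraries each. TAC narrows the aorta and puts a pressure load on the left ventricle. Exposure started 1 week after the operation and went on for 6 weeks, on 5 days of each week and 6 hours of each day. The labels state no ages. The labels do not say which mouse gave which library, and a p-value therefore reflects the spread among libraries, which may be technical.

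Resting cardiac fibroblasts keep up the matrix of the heart, and the transcription factor gene Tcf21 and the receptor gene Pdgfra are their usual markers. Under load they divide, turn on matrix and contractile genes, and may become myofibroblasts with actin stress fibres, a change driven in large part by transforming growth factor beta. The activated state in the mouse heart is marked by Postn, Cthrc1 and the homeobox gene Meox1. The tissue is a mix of cell types, so a larger number of fibroblasts cannot be told apart from more RNA of a gene in each fibroblast.

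Library totals were 10016860 to 13724100 counts in TAC/Benzene, 10479981 to 13581729 in TAC/Air, 9396445 to 14632231 in Sham/Benzene and 4170660 to 12718494 in Sham/Air. The smallest library was Sham/Air replicate 1, whose gene counts had Spearman correlations of 0.852 to 0.913 with those of the other libraries, which reached 0.963 to 0.996 among themselves. Levels below are CPM, a gene's count relative to the scaled total of its library. A gene was called at an adjusted p under 0.05 in edgeR's quasi-likelihood test over the 13571 genes that passed the filter on low counts, and log2 fold changes are given ± SE.

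All 10 genes passed that filter. Cthrc1 was over its cutoff of 0.873 CPM in 12 of 12 TAC libraries and 0 of 12 sham libraries, and Frem1 in 12 and 1. These 2 genes entered through the TAC groups, so the number of activation genes called is a description and not support for a difference between the classes.

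Promoter sequence is shown for 3 members with unlike responses to TAC: the matrix gene Cilp, which was the gene with the smallest p of all in air, the actin gene Acta2, which was not called, and the resting marker Pi16, which was called higher. Each is the 250 bases before the RefSeq start of the gene in build GRCm38.p6, read 5′ to 3′ on the gene's strand, which is not the mm9 build of the counts. The Cilp window lies at chr9:65264930-65265179 on the plus strand, Acta2 at chr19:34255374-34255623 on the minus strand and Pi16 at chr17:29318632-29318881 on the plus strand. Capitals mark matches to a searched motif.
Cilp: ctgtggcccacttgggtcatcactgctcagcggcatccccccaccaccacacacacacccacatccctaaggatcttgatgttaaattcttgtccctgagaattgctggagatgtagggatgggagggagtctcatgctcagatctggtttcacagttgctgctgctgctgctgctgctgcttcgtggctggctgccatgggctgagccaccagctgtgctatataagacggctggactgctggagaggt
Acta2: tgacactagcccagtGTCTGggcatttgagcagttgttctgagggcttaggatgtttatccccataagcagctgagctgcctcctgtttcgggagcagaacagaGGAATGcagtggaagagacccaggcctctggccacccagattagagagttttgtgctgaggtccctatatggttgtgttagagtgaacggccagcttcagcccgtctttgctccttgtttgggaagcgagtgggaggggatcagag
Pi16: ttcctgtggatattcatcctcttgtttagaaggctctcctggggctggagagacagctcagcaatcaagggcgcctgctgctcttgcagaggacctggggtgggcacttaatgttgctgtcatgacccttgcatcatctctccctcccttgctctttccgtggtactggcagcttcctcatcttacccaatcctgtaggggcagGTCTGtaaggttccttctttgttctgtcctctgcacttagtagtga

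The motifs were searched on both strands, and a site that matched on both counted once. They were the CArG box of serum response factor in its strict form CCWWWWWWGG (W is A or T), the SMAD core GTCTG, the TEAD element GGAATG, the AP-1 element TGANTCA and the TATA box TATAAA. None of the matches overlapped another in these windows. The Acta2 window held 1 SMAD core and 1 TEAD element, and the Pi16 window held 1 SMAD core. The Acta2 window also holds ccctatatgg and ccttgtttgg, which each depart from the strict CArG form at 1 inner base and were not counted. The search therefore does not show that this window lacks a CArG box. No match to any of these motifs was found in the Cilp window. That window holds tatata, which departs from the searched TATAAA at 1 base and was not counted. The search therefore does not show that the Cilp window lacks a TATA box. The SMAD core was present in 42.2% of 32851 promoter windows of this length, the TEAD element in 12.6%, the TATA box in 12.4%, the AP-1 element in 6.75% and the CArG box in 1.47%. A match is only a run of letters here, no match says only that these letters are not in the window, and binding was not measured. Windows were also present for Frem1, Tcf21, Pdgfra and Dpt. The Tcf21 window held 3 SMAD cores and that of Pdgfra 1, while the 2 windows of Frem1 and that of Dpt matched none of the motifs.

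Each group of libraries enters 2 of the comparisons below, and all 4 enter the interaction, so the comparisons are not independent of each other.

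The first comparison asked what pressure overload did to these genes in filtered air. Of the activation genes, Cthrc1, Frem1, Cilp and Meox1 rose, and Acta2 and Fap were not called. Of the resting or general markers, Pi16 and Dpt rose, Tcf21 and Pdgfra were not called, and none was called lower. So 6 of the 10 genes were higher after TAC in air, where 8.81% of all genes tested were higher and 7.35% lower. The TAC/Air libraries all lay above the Sham/Air libraries for the same 6 genes, as they did for 5.78% of all genes tested. The members were chosen with earlier results known, and Cthrc1 and Frem1 entered the filter through the TAC libraries. Such counts beside the shares of all genes are therefore a description only, here and under benzene. The median log2 fold change was 3.02 over the 6 activation genes, 0.31 over the 4 resting or general markers and -0.01 over all genes tested.

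Cthrc1 encodes a secreted collagen triple helix repeat protein of matrix-producing fibroblasts. It had 5.66, 7.38 and 8.96 CPM (lowest, median and highest library) in TAC/Air, against 0, 0.182 and 0.645 CPM in Sham/Air. The groups did not overlap, and Cthrc1 was almost absent in sham hearts, with 15 counts over the 6 Sham/Air libraries and 0 in 2 of them. The log2 fold change was 4.64 ± 0.31 (adjusted p = 2.19e-11). Leaving out Sham/Air replicate 5, which held 8 of the 15 counts, moved it to 5.29.

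Frem1 encodes an extracellular matrix protein of basement membranes. Its lowest, median and highest levels were 3.61, 5.22 and 7.72 CPM in TAC/Air, against 0.0806, 0.280 and 0.515 CPM in Sham/Air. Every TAC/Air library was above every Sham/Air library, and the Sham/Air level again rested on few counts, 14 in all. The log2 fold change was 4.23 ± 0.35 (adjusted p = 1.43e-09).

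Cilp, the gene of cartilage intermediate layer protein, a matrix protein, was the most abundant member per transcript length after TAC. It had 399, 429 and 437 CPM in TAC/Air, against 18.5, 28.5 and 34.4 CPM in Sham/Air. The spread within each group was small beside the distance between them, and Cilp ranked 1 by p among the 13571 genes. The log2 fold change was 3.89 ± 0.13 (adjusted p = 2.21e-17).

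Meox1 is a homeobox transcription factor gene of activated fibroblasts. It had 61.5, 70.6 and 78.5 CPM in TAC/Air, against 9.66, 16.5 and 19.0 CPM in Sham/Air. No TAC/Air library came near the sham range, and the lowest value was that of Sham/Air replicate 1. The log2 fold change was 2.15 ± 0.15 (adjusted p = 2.78e-11), and it was 2.06 without that library.

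Acta2 encodes smooth muscle alpha-actin, which fills the stress fibres of myofibroblasts and is also a main product of vascular smooth muscle. It had 115, 139 and 144 CPM in TAC/Air, against 110, 123 and 131 CPM in Sham/Air. The groups overlapped, and the log2 fold change of 0.14 ± 0.08 was not called (adjusted p = 0.289, 95% interval -0.03 to 0.31). That interval ends well below the changes of the 4 activation genes that rose.

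Fap encodes fibroblast activation protein, a membrane serine protease. It had 7.52, 9.82 and 10.9 CPM in TAC/Air, against 5.64, 8.13 and 16.2 CPM in Sham/Air. The highest Fap level of all 24 libraries was in Sham/Air replicate 1, so the sham group spanned the whole TAC range. The log2 fold change was 0.13 ± 0.19 (adjusted p = 0.714, 95% interval -0.26 to 0.52), and without Sham/Air replicate 1 it was 0.32 ± 0.16 (adjusted p = 0.164). With limma-voom and sample weights it was called higher, at 0.38 (adjusted p = 0.048).

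Pi16 encodes a peptidase inhibitor and marks resting, adventitial-type fibroblasts. It had 143, 198 and 232 CPM in TAC/Air, against 13.9, 82.0 and 90.2 CPM in Sham/Air. The groups did not overlap, and although Pi16 is listed with the resting markers it rose more than any other of them, with a log2 fold change of 1.41 ± 0.24 (adjusted p = 1.3e-04). Sham/Air replicate 1 stood far below the rest of its group, and without it the change was 1.21 ± 0.12 (adjusted p = 1.29e-08).

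Dpt, the gene of dermatopontin, a matrix protein that most fibroblasts make, had 155, 159 and 174 CPM in TAC/Air, against 133, 137 and 145 CPM in Sham/Air. The step was small but the groups did not overlap, and the log2 fold change of 0.23 ± 0.06 was called (adjusted p = 0.0114). In a fit of only these 2 groups the call was lost (adjusted p = 0.0967).

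Tcf21, a basic helix-loop-helix transcription factor gene of the fibroblast and epicardial lineage, had 7.96, 11.2 and 14.5 CPM in TAC/Air, against 5.398, 9.01 and 11.1 CPM in Sham/Air. The ranges overlapped, and the log2 fold change of 0.40 ± 0.14 did not pass (adjusted p = 0.0583), although it did with DESeq2 (adjusted p = 0.0385), with the GC and length offsets (adjusted p = 0.0244) and when TAC/Air replicate 5 (adjusted p = 0.0181) or Sham/Air replicate 3 (adjusted p = 0.036) was left out. Pdgfra, the gene of platelet-derived growth factor receptor alpha, had 65.0, 82.6 and 91.6 CPM in TAC/Air, against 61.5, 67.3 and 91.8 CPM in Sham/Air. Its groups overlapped, and the top of the Sham/Air range was Sham/Air replicate 1, with the next library at 73.2 CPM. The log2 fold change of Pdgfra was 0.18 ± 0.11 (adjusted p = 0.324), and it was 0.26, still not called, without that library. Pdgfra passed in limma-voom with sample weights at 0.28 (adjusted p = 0.0124) and with the GC and length offsets at 0.20 (adjusted p = 0.0475).

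**Figure D1:**
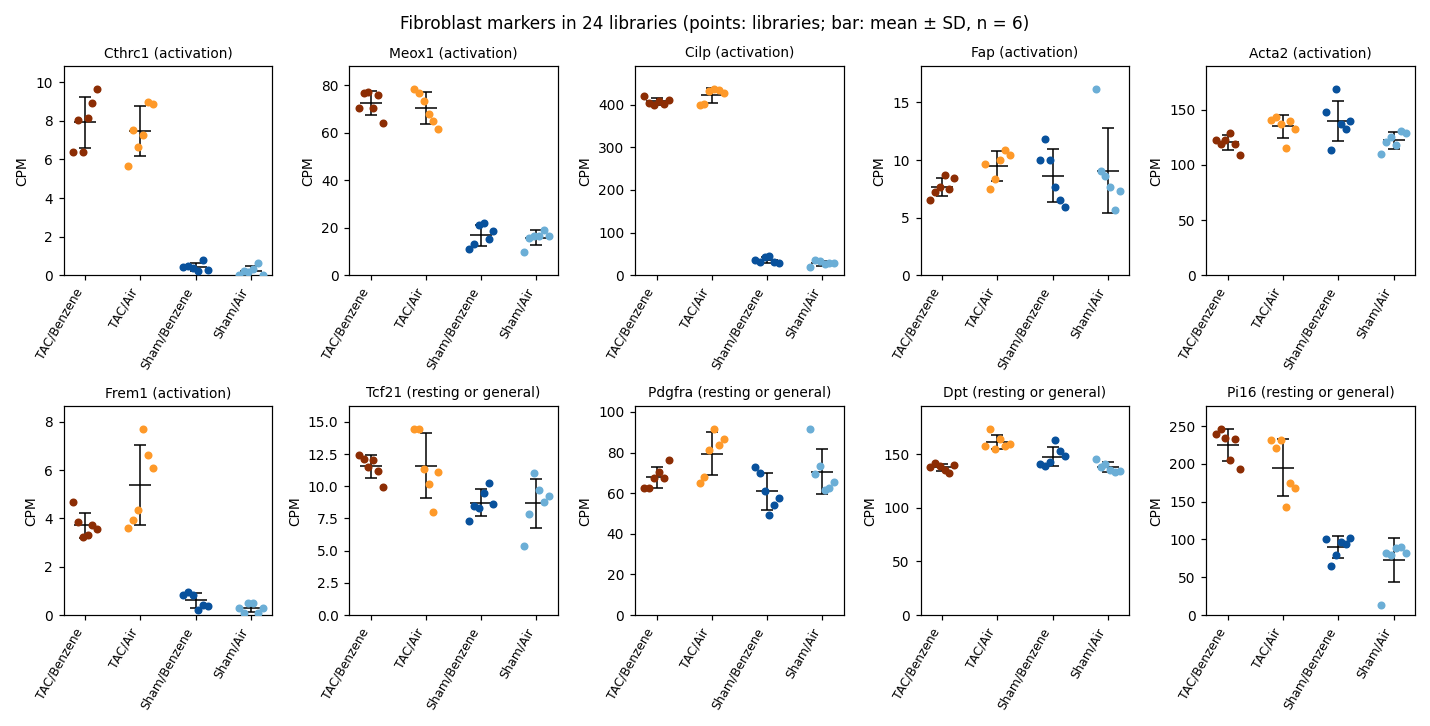
Level of each of the 10 genes in CPM (vertical axis, linear from 0) in the 4 groups (horizontal axis). Points are libraries, and black bars give mean ± SD (n = 6). Cthrc1, Meox1, Cilp, Frem1 and Pi16 are higher in every TAC library than in any sham library of the same exposure, while Fap and Acta2 overlap between surgeries.

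The second comparison set TAC against sham in mice that breathed benzene. Cthrc1, Cilp, Frem1 and Meox1 rose among the activation genes, and Pi16 alone rose among the resting or general markers. That was 5 of 10 genes higher, where 8.67% of all genes tested were higher and 7.97% lower. The same 5 were the members whose TAC/Benzene libraries all lay above the Sham/Benzene libraries, as they did for 7.62% of all genes tested. The median log2 fold change was 2.38 over the activation genes, 0.28 over the resting or general markers and -0.0045 over all genes tested.

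Cthrc1 had 6.37, 8.09 and 9.67 CPM in TAC/Benzene, against 0.206, 0.396 and 0.796 CPM in Sham/Benzene. Cilp had 400.1, 406 and 421 CPM in TAC/Benzene, against 28.7, 33.2 and 44.2 CPM in Sham/Benzene. Meox1 had 64.1, 73.1 and 76.9 CPM in TAC/Benzene, against 10.9, 17.0 and 21.9 CPM in Sham/Benzene. In all 3 of these genes the 6 TAC/Benzene libraries lay above every Sham/Benzene library. The log2 fold changes were 4.18 ± 0.27 for Cthrc1 (adjusted p = 1.04e-11), 3.52 ± 0.12 for Cilp (adjusted p = 8.5e-17) and 2.10 ± 0.14 for Meox1 (adjusted p = 2.99e-11).

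Frem1 had 3.23, 3.63 and 4.67 CPM in TAC/Benzene, against 0.206, 0.615 and 0.960 CPM in Sham/Benzene. The groups did not overlap, and the log2 fold change was 2.66 ± 0.30 (adjusted p = 1.89e-07). Pi16 had 194, 233 and 247 CPM in TAC/Benzene, against 64.6, 95.8 and 102 CPM in Sham/Benzene. Its libraries separated by surgery as well, with a log2 fold change of 1.33 ± 0.24 (adjusted p = 2.17e-04).

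The other members did not pass under benzene. Acta2 had 109, 121 and 129 CPM in TAC/Benzene, against 113, 138 and 169 CPM in Sham/Benzene, and its log2 fold change was -0.22 ± 0.08 (adjusted p = 0.082). That sign is opposite to the one in air, and the call was made with DESeq2 (adjusted p = 0.03) with limma-voom (adjusted p = 0.012), with the GC and length offsets (adjusted p = 0.0252) and without Sham/Benzene replicate 2 (adjusted p = 0.0214). Tcf21 had 9.93, 11.8 and 12.4 CPM in TAC/Benzene, against 7.28, 8.55 and 10.3 CPM in Sham/Benzene. Its log2 fold change of 0.40 ± 0.14 lay just outside the threshold (adjusted p = 0.0524) and passed in a fit of only these 2 groups (adjusted p = 0.0099), with the GC and length offsets (adjusted p = 0.00986), with limma-voom (adjusted p = 0.0178), with DESeq2 (adjusted p = 0.0272), without Sham/Benzene replicate 5 (adjusted p = 0.044) and without TAC/Benzene replicate 6 (adjusted p = 0.0498). Pdgfra at 0.16 ± 0.11 (adjusted p = 0.42), Dpt at -0.10 ± 0.06 (adjusted p = 0.32) and Fap at -0.17 ± 0.19 (adjusted p = 0.656) had groups that overlapped. With limma-voom Dpt was called lower at -0.12 (adjusted p = 0.0277) and Pdgfra higher at 0.20 (adjusted p = 0.0459).

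**Figure D2:**
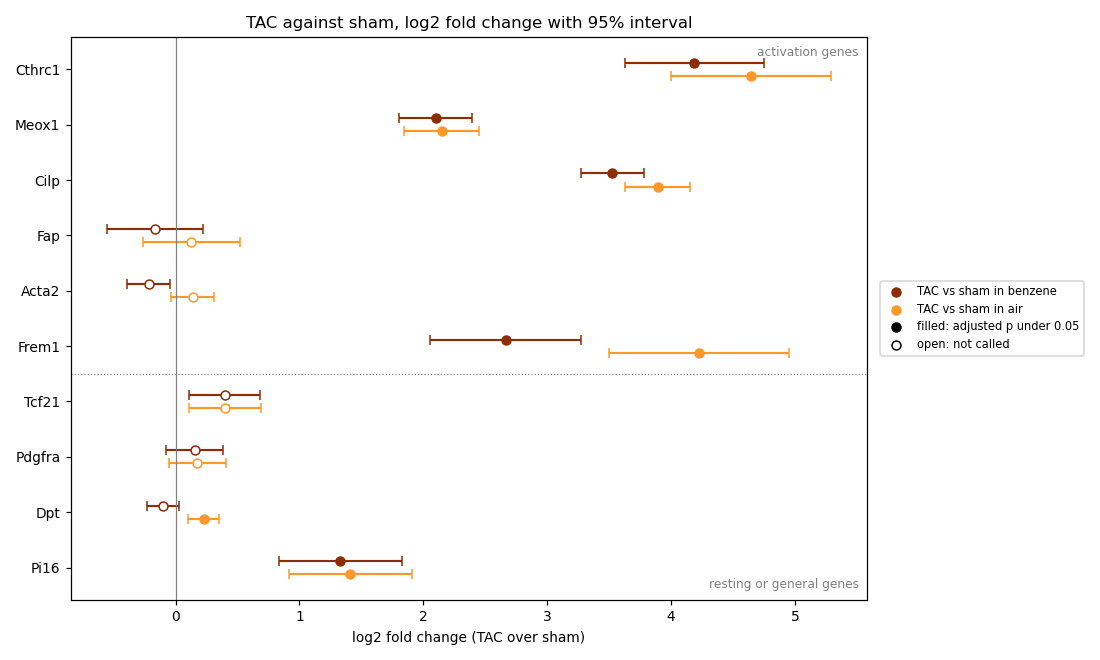
Log2 fold change of TAC over sham (horizontal axis) for each gene (vertical axis), under benzene and in air, with 95% intervals. Filled points passed an adjusted p of 0.05. Cthrc1, Cilp, Frem1 and Meox1 lie between 2.10 and 4.64, apart from Fap and Acta2, which lie between -0.22 and 0.14.

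The activation genes were then set beside the resting or general markers within each library. The mean log2 CPM of the 6 activation genes minus that of the 4 others was -1.19 ± 0.06 in TAC/Benzene, -1.10 ± 0.20 in TAC/Air, -2.66 ± 0.22 in Sham/Benzene and -2.89 ± 0.20 in Sham/Air (SD, n = 6). Every TAC library was above every sham library, and no test was made of this, since the members were chosen with results known. The activation mean also includes Cthrc1 and Frem1, which passed the filter through the TAC libraries. Their mean log2 CPM were 2.92 and 2.42 in TAC/Air, against -1.51 and -1.19 in Sham/Air, where counts were few and the prior count weighs on the value. The difference was not computed without these genes. Both parts of the difference moved: the activation mean was 4.95 ± 0.04 in TAC/Benzene, 5.09 ± 0.10 in TAC/Air, 3.03 ± 0.17 in Sham/Benzene and 2.69 ± 0.16 in Sham/Air. The resting mean was 6.14 ± 0.03 in TAC/Benzene, 6.19 ± 0.10 in TAC/Air, 5.69 ± 0.06 in Sham/Benzene and 5.58 ± 0.29 in Sham/Air. The resting mean was therefore not lower after TAC, and Pi16 gave the largest part of its step. The sign of the difference within a library has no meaning of its own, since CPM are not scaled to gene length.

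**Figure D3:**
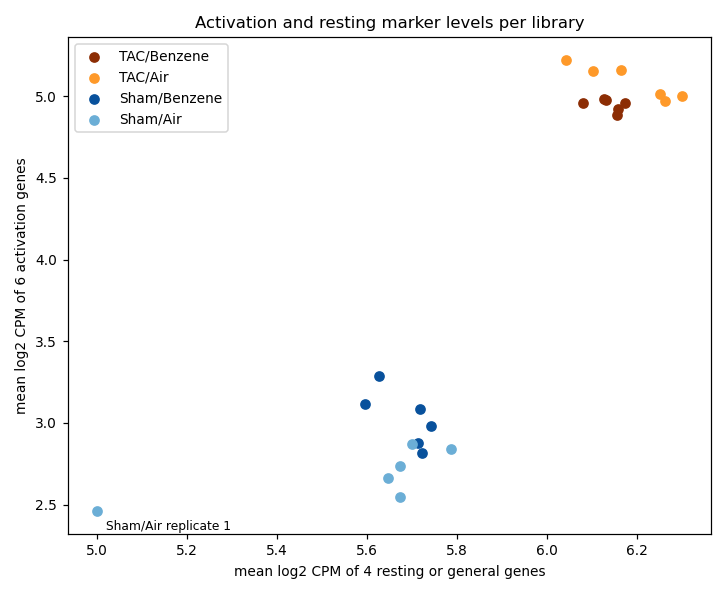
Mean log2 CPM of the 4 resting or general markers (horizontal axis) and of the 6 activation genes (vertical axis) in each library (points, coloured by group). The 12 TAC libraries lie above and to the right of the 12 sham libraries, and Sham/Air replicate 1 has the lowest resting mean, at 5.00.

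Scaled to the length of the longest GENCODE vM21 transcript, the order of the genes in TAC/Benzene and TAC/Air was Cilp, Dpt, Acta2, Pi16, Meox1 and Pdgfra from the top. Cilp had 98.2 ± 1.94 CPM per kb in TAC/Benzene and 102 ± 4.21 in TAC/Air, and Dpt had 79.95 ± 1.97 CPM per kb in TAC/Benzene and 93.5 ± 3.95 in TAC/Air. Sham hearts had another order, with Dpt, Acta2, Pi16 and Pdgfra first. There Dpt had 85.8 ± 5.34 CPM per kb in Sham/Benzene and 80.01 ± 2.66 in Sham/Air, while Cilp had 8.52 ± 1.603 CPM per kb in Sham/Benzene and 6.78 ± 1.33 in Sham/Air. Acta2 at 59.1 ± 3.31 and Pi16 at 56.4 ± 5.23 CPM per kb were within their SDs of each other in TAC/Benzene. Cilp, Meox1 and Pdgfra did not differ beyond their SDs in Sham/Benzene, and nor did Meox1 and Cilp in Sham/Air. Cthrc1 and Tcf21 were likewise within their SDs of each other in TAC/Benzene and in TAC/Air, near 6.5 CPM per kb. Frem1, a long transcript, was last in all 4 groups, at 0.384 ± 0.0534 CPM per kb in TAC/Benzene, 0.556 ± 0.171 in TAC/Air, 0.0623 ± 0.0322 in Sham/Benzene and 0.0300 ± 0.0190 in Sham/Air.

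The next comparison asked what benzene did to these genes in hearts under pressure overload. None of the 10 was called, where 0.582% of all genes tested were. At an unadjusted p under 0.05 there were 2 members, Dpt and Frem1, beside 6.17% of all genes. DESeq2 and limma-voom each called 1 member, Dpt.

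Dpt had 133, 139 and 142 CPM in TAC/Benzene, against 155, 159 and 174 CPM in TAC/Air. All 6 TAC/Benzene libraries were below all 6 TAC/Air libraries, which held for 1 of the 10 members and for 1.21% of all genes tested. The log2 fold change was -0.23 ± 0.06 (adjusted p = 0.126, 95% interval -0.35 to -0.10). It was called lower with DESeq2 (adjusted p = 3.07e-04), with limma-voom (adjusted p = 0.00185), with offsets for GC content and length (adjusted p = 0.0298) and in a fit of only these 2 groups (adjusted p = 0.0209). The summed level of 24 further resting or general fibroblast genes was also lower in every TAC/Benzene library, at 6067 to 6482 CPM, against 6524 to 7109 CPM in TAC/Air. That sum mostly follows the most abundant of the 24 genes. Gene by gene their median log2 fold change was -0.08, with 9 of the 24 above 0 and 1 called lower. The summed level of 9 macrophage genes was 631 to 663 CPM in TAC/Benzene, against 731 to 794 CPM in TAC/Air. The part of these 2 lists in the Dpt difference was not tested.

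Frem1 was at -0.53 ± 0.22 (adjusted p = 0.638, 95% interval -0.99 to -0.07), with TAC/Benzene levels of 3.23 to 4.67 CPM that overlapped the lower part of the TAC/Air range. Pdgfra was at -0.23 ± 0.11 (adjusted p = 0.807), Fap at -0.30 ± 0.18 (adjusted p = 0.996) and Acta2 at -0.16 ± 0.08 (adjusted p = 0.842). Of the other genes called after TAC, Cilp was at -0.05 ± 0.11 (95% interval -0.28 to 0.18), Meox1 at 0.04 ± 0.14 (95% interval -0.24 to 0.32) and Cthrc1 at 0.08 ± 0.19 (95% interval -0.31 to 0.47). Tcf21 was at -0.01 ± 0.14 and Pi16 at 0.21 ± 0.24. These intervals bound the differences, and a p above the threshold does not show that the exposures gave the same level.

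In sham hearts no member was called with benzene either, and 0.0221% of all genes tested were called. Unadjusted p was under 0.05 for 3 members (5.73% of all genes), and DESeq2 and limma-voom called none. No member had groups without overlap, which 0.28% of all genes tested had. The 3 were Cilp at 0.32 ± 0.12 (95% interval 0.08 to 0.56), Acta2 at 0.19 ± 0.08 (95% interval 0.02 to 0.37) and Frem1 at 1.04 ± 0.48 (95% interval 0.05 to 2.02), all in the direction of higher levels in Sham/Benzene and none passing (adjusted p = 0.698 to 0.819). The Frem1 value compared a median of 0.615 CPM in Sham/Benzene with 0.280 CPM in Sham/Air, which is a handful of counts per library. Without Sham/Air replicate 1 the Cilp difference was 0.24. Pi16 was at 0.29 ± 0.24 and dropped to 0.09 ± 0.12 without that library. Cthrc1 was at 0.54 ± 0.47, a value that single libraries decided: it was 0.24 without Sham/Benzene replicate 5 and 1.20 without Sham/Air replicate 5. Fap was at -0.01 ± 0.19, and at 0.18 without Sham/Air replicate 1 and -0.12 without Sham/Air replicate 5. Meox1 was at 0.09 ± 0.15, Pdgfra at -0.21 ± 0.11 and Tcf21 at -0.01 ± 0.15. Dpt was at 0.10 ± 0.06.

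The surgery by benzene interaction asked whether the response to TAC differed between exposures. No member was called, with 0.169% of all genes called, and the interaction was below 0 for all 10 genes, although Meox1, Tcf21 and Pi16 were above 0 with limma-voom and without Sham/Air replicate 1, and Pdgfra without some other single libraries. An unadjusted p under 0.05 was found for 4 members and for 4.69% of all genes. They were Dpt at -0.33 ± 0.09 (adjusted p = 0.233), Acta2 at -0.36 ± 0.12 (adjusted p = 0.573), Frem1 at -1.57 ± 0.53 (adjusted p = 0.593) and Cilp at -0.37 ± 0.16 (adjusted p = 0.961). The 10 genes share the same libraries, so their common sign is 1 observation and not 10. Dpt was called with DESeq2 (adjusted p = 8.28e-04), with limma-voom (adjusted p = 0.00226) and without Sham/Air replicate 1 (adjusted p = 0.0266). For Meox1 the interaction was -0.05 ± 0.20, for Tcf21 -0.0023 ± 0.20 and for Pdgfra -0.02 ± 0.16, with 95% intervals of -0.46 to 0.36, -0.42 to 0.41 and -0.34 to 0.31. Cthrc1 at -0.46 ± 0.50, Pi16 at -0.08 ± 0.34 and Fap at -0.30 ± 0.27 had wider intervals, and the Cthrc1 value was -0.15 when Sham/Benzene replicate 5 was left out and -1.11 when Sham/Air replicate 5 was.

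**Figure D4:**
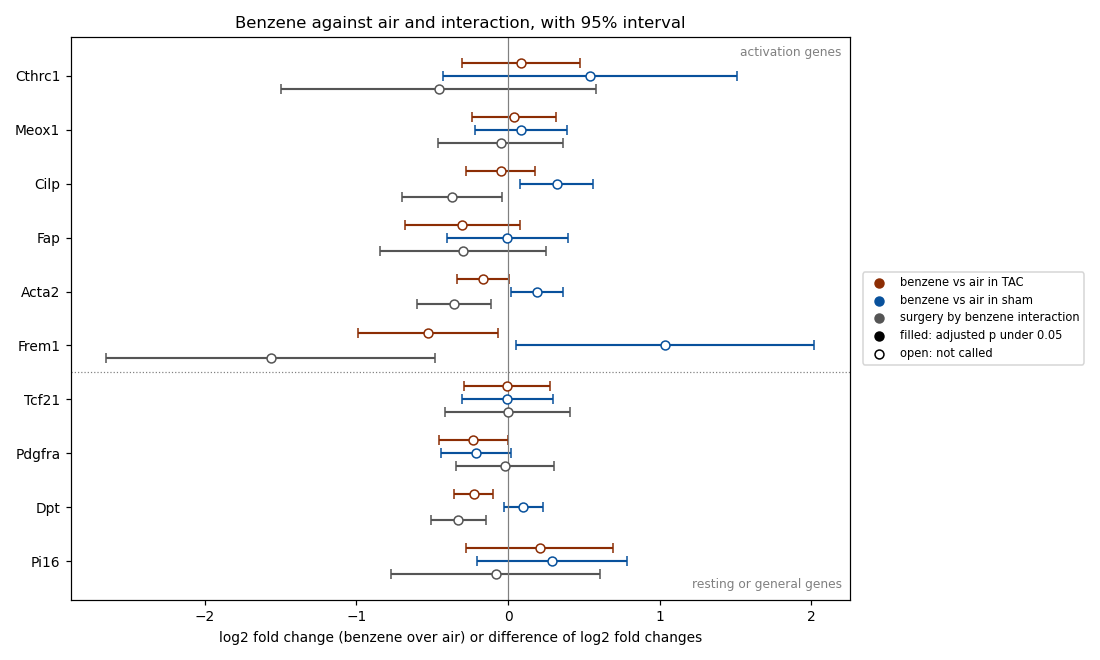
Log2 fold change of benzene over air in TAC and in sham hearts, and the interaction as the difference of log2 fold changes (horizontal axis), for each gene (vertical axis), with 95% intervals. All points are open, since none passed an adjusted p of 0.05, and all 10 interaction points lie below 0, of which Meox1, Tcf21 and Pi16 were above 0 with limma-voom.

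Members differed in how they varied among libraries of a group. In TAC/Air, Pi16 was highest in replicates 1, 2 and 3 (232, 221 and 231 CPM) and lower in replicates 4, 5 and 6 (143, 175 and 168 CPM). Frem1 had the reverse pattern, with 3.61, 3.96 and 4.35 CPM in the first of these libraries and 7.72, 6.61 and 6.09 CPM in the others. Pdgfra followed Frem1, with 65.0, 68.0 and 81.2 CPM against 91.6, 83.9 and 86.9 CPM. Meox1 split as Pi16 did, with 78.5, 76.9 and 73.2 CPM against 67.9, 64.7 and 61.5 CPM. Tcf21 did so too, with 14.5, 14.5 and 11.3 CPM against 10.2, 7.96 and 11.1 CPM. Fap split as Frem1 did, with 9.66, 7.52 and 8.34 CPM against 9.98, 10.9 and 10.5 CPM. Cilp did not share the Pi16 pattern, with 399, 401 and 432 CPM in replicates 1 to 3 and 437, 435 and 426 CPM in replicates 4 to 6. Cthrc1, Acta2 and Dpt also overlapped between these sets of libraries. GC content trends also differed between these libraries: the Spearman correlation between a gene's GC content and its deviation in a library, over 10855 genes that are not independent replicates, was 0.515, 0.514 and 0.541 in replicates 1 to 3 and -0.528, -0.152 and -0.309 in replicates 4 to 6. Both sham groups split in the opposite direction. Replicates 1 to 3 had -0.221, -0.484 and -0.419 in Sham/Benzene and -0.752, -0.255 and -0.308 in Sham/Air. Replicates 4 to 6 had 0.592, 0.487 and 0.454 in Sham/Benzene and 0.583, 0.57 and 0.34 in Sham/Air. In TAC/Benzene replicates 1 to 6 had 0.53, 0.563, 0.427, -0.014, 0.435 and -0.216. The Pi16 transcript has 54.9% GC, the highest of the 10, that of Cilp 53.3%, the next highest, and those of Frem1 and Pdgfra 47.7% and 48.1%. Those of Meox1 and Tcf21 have 52.4% and 49.9%. In Sham/Air replicate 1, where Pi16 was lowest and Fap highest, the correlation was -0.752, and the Fap transcript has 39.7% GC, the lowest of the members. The part of GC content in these levels was not tested member by member. Offsets for GC and length gave a log2 fold change of Pi16 with TAC in air of 1.30 ± 0.13 (adjusted p = 1.2e-08). The median SD of log2 CPM over the 10 genes was 0.112 in TAC/Benzene, 0.2 in TAC/Air, 0.260 in Sham/Benzene and 0.342 in Sham/Air. Over all genes tested it was 0.152 in TAC/Benzene, 0.203 in TAC/Air, 0.230 in Sham/Benzene and 0.424 in Sham/Air.

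Likeness between genes was measured as the root mean square difference over the 24 libraries of log2 CPM centred on each gene's mean. Among the members, Acta2 and Dpt were closest to each other at 0.15, Cthrc1 was closest to Cilp at 0.55, and Meox1 was closest to Pi16 at 0.55. Acta2 and Dpt varied little, with group means of log2 CPM of 6.91 to 7.12 and 7.11 to 7.33. Their small difference therefore does not show a shared pattern. Among 12984 other genes averaging 1 CPM or more, those most like Cthrc1 were Ltbp2 at 0.53, Nppa at 0.54 and Comp at 0.55, against an own SD of Cthrc1 of 2.12. Ltbp2 is a latent TGF-beta binding protein gene of the matrix, Nppa encodes atrial natriuretic peptide of cardiomyocytes, and Comp is a cartilage matrix gene. The nearest to Meox1 were Nppb at 0.22, Adamtsl2 at 0.23 and Rcan1 at 0.28 (own SD 1.11). Nppb is a natriuretic peptide gene of cardiomyocytes, Adamtsl2 a secreted matrix glycoprotein gene, and Rcan1 a target of calcineurin signalling. Pdgfra was nearest to Asah1 at 0.10, Wls at 0.11 and Dnajc10 at 0.11 (own SD 0.22), and Tcf21 to Cfl1, Tmed3 and S100a10, each at 0.16 (own SD 0.31).

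Other fibroblast genes were counted over lists made with earlier results of these data known. Beside the counts of this list and those below, TAC raised 8.67% and lowered 7.97% of all genes tested in benzene. In air the shares were 8.81% and 7.35%. With benzene in TAC hearts 0.582% of all genes were called, and in the interaction 0.169%. Of 24 further activated fibroblast and myofibroblast genes, TAC raised 20 and lowered 2 in benzene, and raised 21 and lowered 0 in air, with median log2 fold changes of 2.16 and 2.58. Ccn2, the gene of connective tissue growth factor, was at 2.37 ± 0.09 in benzene and 2.62 ± 0.09 in air, the thrombospondin gene Thbs4 at 3.99 ± 0.14 and 4.07 ± 0.14, and the collagen gene Col12a1 at 3.19 ± 0.13 and 3.79 ± 0.14. Of 24 further resting or general genes, 12 were higher and 2 lower in benzene, and 13 higher and 1 lower in air, with medians of 0.41 and 0.49. The lower genes of both lists were Chad and Lrrc17 among the activated and Scara5 and Opcml among the resting ones in benzene, and Scara5 alone in air, of which Lrrc17 and Opcml are named only because the counts were small. The microfibril gene Mfap5, which is found with Pi16 in adventitial fibroblasts, rose by 2.38 ± 0.12 in benzene and 2.35 ± 0.12 in air, and the collagen chain gene Col1a2 by 1.31 ± 0.07 and 1.54 ± 0.07. Scara5, a scavenger receptor gene of resting fibroblasts, fell by 1.54 ± 0.08 in benzene and by 1.06 ± 0.08 in air. So the resting list held genes that rose with Pi16 and 1 that fell in both exposures.

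Scara5 also fell with benzene in TAC hearts, to 16.1 ± 1.18 CPM in TAC/Benzene, against 22.5 ± 0.946 CPM in TAC/Air (SD, n = 6), a log2 fold change of -0.49 ± 0.08 (adjusted p = 0.00313). In the activated list 2 of 24 genes were lower there. The cartilage matrix gene Chad had 2.06 ± 0.699 CPM in TAC/Benzene and 6.23 ± 0.644 CPM in TAC/Air, with a log2 fold change of -1.60 ± 0.24 (adjusted p = 5.35e-04). The tenascin gene Tnc had 7.29 ± 1.45 CPM in TAC/Benzene and 13.9 ± 1.99 CPM in TAC/Air, with -0.93 ± 0.21 (adjusted p = 0.0392). Chad alone of the 48 genes in both lists was called in the interaction, at -2.64 ± 0.35 (adjusted p = 5.94e-04). Its sham levels, 4.36 ± 1.78 CPM in Sham/Benzene and 2.04 ± 0.686 CPM in Sham/Air, enter that value as well. In sham hearts none of the 48 was called with benzene.

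Genes that control fibroblast activation had 5 of 20 higher after TAC in benzene and 6 of 20 higher in air, with none lower. The ligand genes Tgfb2, at 1.88 ± 0.14 in benzene and 1.46 ± 0.14 in air, and Tgfb3, at 1.33 ± 0.10 and 1.36 ± 0.11, were among them. The receptor gene Tgfbr2 was at 0.30 ± 0.07 in benzene and 0.39 ± 0.07 in air. No gene of this list was called in either benzene comparison or in the interaction.

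Acta2 was set beside 16 smooth muscle and pericyte genes, of which TAC raised 0 and lowered 2 in benzene, with 2 higher (Tagln and Mcam) and 3 lower in air. The smooth muscle myosin gene Myh11 was at -0.42 ± 0.13 in benzene and -0.63 ± 0.13 in air, the pericyte channel gene Abcc9 at -0.79 ± 0.16 and -0.84 ± 0.16, and the kinase gene Mylk at -0.33 ± 0.12, which was not called in benzene, and -0.55 ± 0.12 in air. Their summed level ran from 1944 to 2100.4 CPM in TAC/Benzene, 1939 to 2238 in TAC/Air, 2103 to 2775 in Sham/Benzene and 2128 to 3545 in Sham/Air, and none of the 16 was at 0 in all libraries. Sham/Air replicate 1 gave the highest of these sums, and the next in its group was 2452 CPM. The part of smooth muscle in the Acta2 values was not tested.

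Markers of other cells were counted beside these results. Of 9 cardiomyocyte genes, 5 were lower after TAC in benzene and 6 in air, among them Myh6 at -0.62 ± 0.13 and -0.88 ± 0.13, and their summed level was 55871 to 62054 CPM in TAC/Benzene, 53454 to 62076 in TAC/Air, 70627 to 83877 in Sham/Benzene and 76613 to 110091 in Sham/Air. The highest Sham/Air sum was that of replicate 1, and the next was 81941 CPM. Of 8 endothelial genes 1 was higher in benzene (Cdh5 at 0.23 ± 0.07) and none was called in air, and none of 3 epicardial and mesothelial genes tested, of 11 listed, was called in either exposure. Of 9 macrophage genes, 3 were lower in benzene (Cd163, Lyve1 and Cd68), and 2 were higher (Adgre1 and Lyz2) and 2 lower (Cd163 and Lyve1) in air, where Cd163 was at -0.81 ± 0.13 and Adgre1 at 0.53 ± 0.09. Adgre1 was also lower with benzene in TAC hearts, at -0.46 ± 0.09 (adjusted p = 0.00925). Of 3 chondrocyte and lung genes tested, of 8 listed, Acan was higher after TAC, at 2.09 ± 0.43 in benzene and 1.97 ± 0.50 in air. The lung gene Scgb1a1 was lower at -4.21 ± 0.73 and -5.49 ± 0.42, and Sftpc at -2.24 ± 0.82, which was not called, in benzene and -4.90 ± 0.61 in air. Both lung genes were also lower in Sham/Benzene than in Sham/Air, at -3.14 ± 0.33 for Scgb1a1 and -2.57 ± 0.47 for Sftpc, and the summed list was 1.47 to 2.83 CPM in TAC/Benzene, 1.33 to 2.57 in TAC/Air, 0.554 to 2.95 in Sham/Benzene and 6.82 to 10.96 in Sham/Air. The share of these cells in the changes of the fibroblast markers was not tested.

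**Figure D5:**
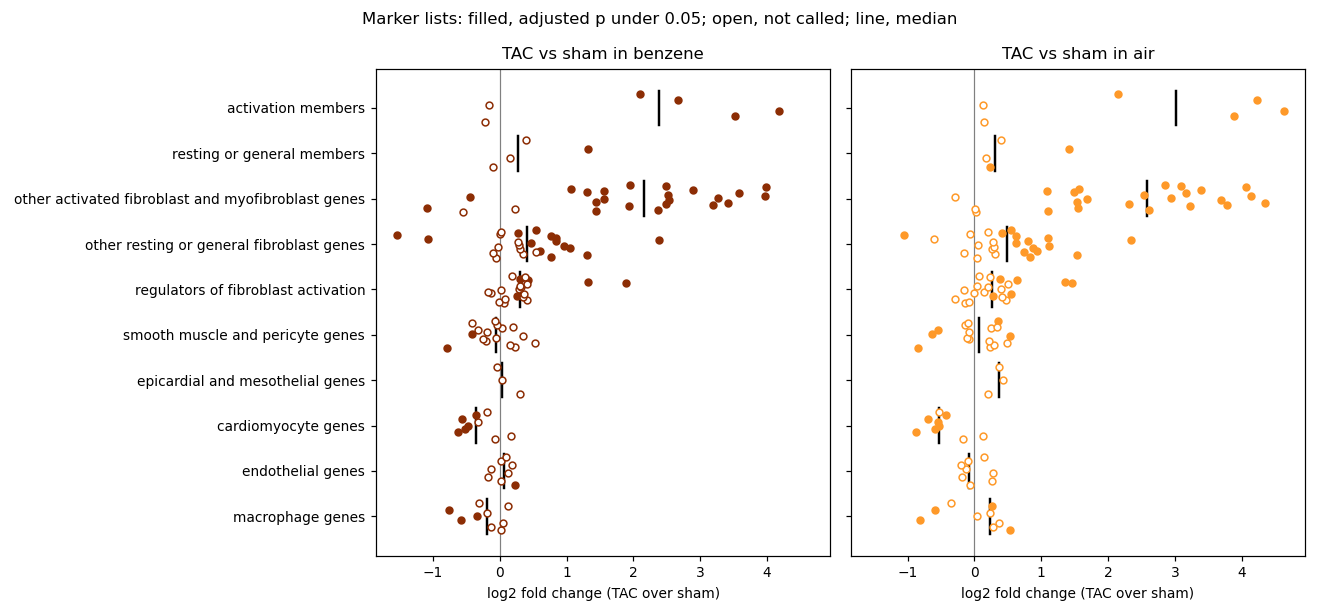
Log2 fold change of TAC over sham (horizontal axis) for the genes of each list (rows), under benzene on the left and in air on the right. Filled points passed an adjusted p of 0.05, and black lines are medians. The activated lists have medians of 2.16 to 3.02 and the resting lists of 0.28 to 0.49, and the chondrocyte and lung list is not drawn.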

How the data were processed

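The authors deposited 1 table of raw read counts per gene symbol, not normalized, with a column for each of 24 libraries, all matched to the labels. FastQC 0.11.9, STAR, DESeq2 and a mouse mm9 genome appear in the submitters' processing notes. How reads were counted, with which annotation and strand setting, is unstated: not given in the sources used here. Genes were filtered with edgeR 4.0.16 in R 4.3.3 (minimum count 10, minimum total 15), and libraries were scaled by TMM. A single quasi-likelihood model, with robust dispersion and a coefficient for each group, took in all libraries. P-values were adjusted by the Benjamini-Hochberg method over all genes tested. Each SE was derived from a fold change and its F value, and log2 CPM used a prior count of 2. The procedure was tested on simulated data.

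Members and lists were chosen with earlier results of these data known. The named genes are the 10 members, at most 3 genes of each list by smallest p in TAC against sham in air or in another comparison where the list holds a call, any list gene called with benzene in TAC hearts or in the interaction, and the 3 genes most like each of Cthrc1, Meox1, Pdgfra and Tcf21. Of short counts, Lrrc17, Opcml, Tagln, Mcam, Lyz2, Lyve1 and Cd68 were named after their values were seen. Alternatives were DESeq2 1.42.0, limma-voom (limma 3.58.1), relative log expression size factors, other filters, fits restricted to the groups of a comparison, a replicate block, GC and length offsets (GENCODE vM21, 98% of symbols matched) and each library left out. Promoter windows are from RefSeq, GRCm38.p6.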

Additional observations from a re-analysis of the deposited data

Results flagged for a closer look

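Sham/Air replicate 1 stood apart from the other 5 libraries of its group in 3 of the 11 sets of 6 values that include it. It had the lowest Pi16 level, at 13.9 CPM with the next at 79.4 CPM, the lowest Meox1 level, at 9.66 CPM with the next at 15.6 CPM, and the highest Fap level, at 16.2 CPM with the next at 9.03 CPM. None of the other sets, of 44 examined over the 4 groups, was marked, and by chance about 1 in 20 sets would be. The library also had the lowest total count and the strongest GC trend. Its part in these values was not tested.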

How the results depend on the processing

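No member's called log2 fold change changed sign under any setting run, while several that were not called did: Fap after TAC in benzene was at -0.17 and at 0.03 with limma-voom, Meox1 with benzene in sham hearts was at 0.09 and at -0.02 with limma-voom, and the interactions of Meox1, Tcf21, Pi16 and Pdgfra were also above 0 in some settings. Cthrc1, Cilp, Meox1, Frem1 and Pi16 were called higher after TAC in both exposures under every one of them.

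Resting or general members called were 2 after TAC in air and 1 in benzene. With only the groups compared in the fit these were 1 and 2, and with DESeq2 3 in air and 2 in benzene. With limma-voom they were 3 in air and 4 in benzene, where Dpt was called lower, and with GC and length offsets 4 in air and 2 in benzene. Activation members called were 4 in each exposure. They were 5 in benzene with DESeq2, limma-voom and the offsets, where Acta2 was called lower, and 5 in air with limma-voom, where Fap was called higher. These counts take calls in either direction. With benzene in TAC hearts, 1 resting member (Dpt) was called with only the groups compared, DESeq2, limma-voom and the offsets, and in the interaction 1 (Dpt) with DESeq2 and limma-voom. The adjusted p of Dpt with benzene in TAC hearts ran from 3.07e-04 to 0.318 over these settings and single libraries left out.

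All genes called after TAC were 2193 in air and 2257 in benzene. In air there were 1278 with only the groups compared, 3739 with limma-voom and 3736 with the offsets, and in benzene 4497 with limma-voom and 3639 with the offsets. With benzene in TAC hearts 79 genes were called, against 276 with only the groups compared, 171 with DESeq2, 556 with limma-voom and 228 with the offsets. In sham hearts 3 genes were called, against 1 with no filter on low counts, 1 with only the groups compared, 28 with DESeq2, 6 with limma-voom and 11 with the offsets. The interaction had 23 calls, against 57 with DESeq2, 93 with limma-voom and 53 with the offsets. The cause of these differences was not tested.

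A fit with the offsets that left out Sham/Air replicate 1 was added once the data had been seen. It gave 4 resting members and 4366 genes after TAC in air, 2 and 4901 in benzene, 1 and 605 with benzene in TAC hearts, 34 genes in sham hearts, and 1 and 179 in the interaction.

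Leaving out 1 library at a time gave 1907 to 3169 genes after TAC in air, the highest without Sham/Air replicate 1, with 4 to 4 activation and 2 to 3 resting members. It gave 1929 to 2233 genes in benzene, with 4 to 5 and 1 to 2 members, 52 to 68 genes with benzene in TAC hearts and 1 to 5 in sham hearts with 0 members, and 15 to 49 in the interaction, with 0 activation and 0 to 1 resting members. The 5 activation members included Acta2, which was called lower without Sham/Benzene replicate 2. The highest interaction count was without Sham/Air replicate 1 and the lowest without Sham/Air replicate 4. The activation mean minus the resting mean ran from -1.20 to -1.17 in TAC/Benzene, -1.15 to -1.06 in TAC/Air, -2.73 to -2.61 in Sham/Benzene and -2.96 to -2.85 in Sham/Air. Without Acta2 it was -1.58 in TAC/Benzene, -1.50 in TAC/Air, -3.48 in Sham/Benzene and -3.74 in Sham/Air, and with a prior count of 0.5 it was -3.16 in Sham/Air.

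Libraries with the same replicate number did not deviate together in every pair of groups, with correlations from -0.53 to 0.47, so the numbers were not taken as pairs. With the replicate block 46 genes were called with benzene in TAC hearts and 14 in the interaction, and no call on a member changed.

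Depth limits Cthrc1 and Frem1 in sham hearts, where each library held at most 10 counts of either.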
